A study of Mus musculus with 28 samples.

Results

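The genes described here are 36 genes of the mitotic cell cycle, taken by name from the gene tables of mouse small-intestinal organoids. All 36 were listed in each of the 3 deposited tables, among 29413 genes in the BMP table and 55416 in the other tables, and all 36 passed the filter on low values in both organoid tables. The organoids are crypt-derived epithelial cultures from wild-type C57BL/6 mice, kept for 48 h in ENR medium. They then received no ligand or 500 ng/ml of 1 recombinant protein of the Tgfb superfamily for 24 h. The BMP table holds 4 untreated samples, 4 given BMP2, and 3 for each of BMP3, BMP4, BMP5 and BMP7. A separate TGFb table holds 3 untreated and 3 Tgfb-treated samples. The third table holds 1 sample of mesenchymal cells freshly isolated from the duodenum of PdgfraH2BeGFP mice and 1 sample of such cells immortalised with HPV16 E6 and sorted for high eGFP. The labels do not say whether replicates came from separate cultures or animals, so p-values measure only the spread between these samples, which may be technical.

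In mitosis, Cdk1 bound to a B-type cyclin drives entry, the Aurora and Polo-like kinases build the spindle, and kinetochores attach chromosomes to its microtubules. The spindle checkpoint holds back the anaphase promoting complex until all chromosomes are attached, and the cell is then cut apart at the central spindle and cleavage furrow. Transcripts of these genes are made mainly in G2 and M phase, under a repressor complex called DREAM and the activators B-Myb and Foxm1. In the small intestine, dividing cells sit in the crypt, and BMP signals are strongest towards the villus.

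In the BMP table the libraries held 21356259 to 24782286 recovered reads, so that a single read equalled 0.826 to 1.28 normalised read counts. The depth of the TPM tables is unknown. Mitochondrial transcripts took 2.81% to 7.61% of the values in the BMP table and 10.9% to 19.7% in the TGFb table. Epithelial markers (Epcam, Cdh1, Vil1, Krt8, Krt18 and Cdx2) were present in every organoid group. The summed mesenchymal markers stayed at or below 54.2 normalised read counts, with Lum and Dcn not listed in the BMP table. After the authors' scaling the values of a sample summed to 26268636 to 29004576 with BMP2 and 25574455 to 26979289 with BMP4, against 19250832 to 20518942 in controls. Setting all samples to the same total moved the median log2 change of all genes from -0.03 to -0.48 for BMP2, from 0.04 to -0.35 for BMP4 and from -0.05 to -0.12 for BMP7.

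Promoter sequence is shown because the 36 genes moved together under 3 of the ligands. RefSeq windows of 300 bases on build GRCm38.p6, from 250 bases before to 50 bases after the annotated start, were matched by symbol for 30 of the 36 genes. Incenp, Aurkb, Kif20a, Cdca2, Ccna2 and Tpx2 were not matched. Of the 32 windows of the matched genes, 21 had their bases after the start within a transcript of the gene. In the others, Kif11 and Birc5 among them, the place of the start is less sure. Searches were made on both strands for TTTGAA or TTCGAA, the letters of the cell cycle homology region, and for CCAAT, the letters of the NF-Y box. A match to the first and a match to the second can share at most 1 base. The cell cycle homology letters were in the windows of 24 of these 30 genes (80%), against 17% of the 10562 genes that were tested in the BMP table and had a window, and 21.7% of all 27025 genes with one. CCAAT was in 23 of the 30 (76.7%), against 43.5% and 41.1%. Both were in 21 of the 30 (70%), against 7.28% and 8.61%. The cell cycle homology letters lay within 50 bases of the start in 22 of the 30 (73.3%), against 4.46% and 6.12%. A match is a description of these letters, not evidence of a bound site.

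The 150 bases before the start are printed 5′ to 3′ for 8 genes, with matches in capitals. Cdk1, Cdc20, Kif11, Ube2c and Top2a are shown for holding both kinds of letters, Bub3 (the first of its 2 windows) as the member that kept the most of its level under BMP2, and Nuf2 and Birc5 as 2 of the 4 with neither.
Cdk1 (chr10:69352913-69353062, minus strand): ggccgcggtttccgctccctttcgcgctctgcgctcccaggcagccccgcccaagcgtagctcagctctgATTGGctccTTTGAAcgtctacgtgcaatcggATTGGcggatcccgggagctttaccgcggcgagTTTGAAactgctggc
Cdc20 (chr4:118437344-118437493, minus strand): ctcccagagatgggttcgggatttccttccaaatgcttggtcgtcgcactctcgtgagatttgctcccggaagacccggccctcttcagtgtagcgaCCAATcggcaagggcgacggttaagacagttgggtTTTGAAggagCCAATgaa
Kif11 (chr19:37376232-37376381, plus strand): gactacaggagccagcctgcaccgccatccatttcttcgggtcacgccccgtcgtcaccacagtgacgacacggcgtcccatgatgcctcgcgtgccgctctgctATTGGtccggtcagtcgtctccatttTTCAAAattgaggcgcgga
Ube2c (chr2:164769779-164769928, plus strand): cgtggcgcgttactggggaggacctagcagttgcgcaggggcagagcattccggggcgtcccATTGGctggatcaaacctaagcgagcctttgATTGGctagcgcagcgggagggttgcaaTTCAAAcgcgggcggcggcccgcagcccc
Top2a (chr11:99024190-99024339, minus strand): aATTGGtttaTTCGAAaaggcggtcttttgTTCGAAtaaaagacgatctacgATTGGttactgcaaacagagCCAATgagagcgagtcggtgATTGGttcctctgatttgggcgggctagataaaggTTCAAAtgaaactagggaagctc
Bub3 (chr7:131560220-131560369, plus strand): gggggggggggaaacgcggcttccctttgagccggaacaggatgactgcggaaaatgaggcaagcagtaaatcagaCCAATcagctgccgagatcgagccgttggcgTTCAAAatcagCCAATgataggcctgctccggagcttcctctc
Nuf2 (chr1:169531465-169531614, minus strand): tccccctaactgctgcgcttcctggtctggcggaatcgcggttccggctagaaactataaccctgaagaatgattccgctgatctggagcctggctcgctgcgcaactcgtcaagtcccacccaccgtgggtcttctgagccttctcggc
Birc5 (chr11:117849087-117849236, plus strand): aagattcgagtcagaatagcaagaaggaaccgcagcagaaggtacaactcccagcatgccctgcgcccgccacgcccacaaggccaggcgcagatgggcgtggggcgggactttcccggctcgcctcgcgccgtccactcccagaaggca
Counted so that -1 is the base before the start, the first base of a cell cycle homology match lay at -15 and -71 in Cdk1, -18 in Cdc20, -19 in Kif11 and -43 in Bub3. In 13 of the 24 genes the letters lay only after the start, and these genes kept 1.46% (Ttk) to 41.6% (Kif23) of control under BMP2, with a median of 3.96%. The 11 genes with a match before the start kept 2.08% (Mki67) to 66.7% (Bub3), with a median of 4.85%. Nuf2, Birc5, Nusap1 and Mad2l1, the genes with no match in their windows, fell to 1.94%, 3.15%, 3.30% and 7.81% of control under BMP2. A missing match says only that these letters are not in this window.

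BMP2 lowered all 36 genes, to a median of 4.23% of the control mean, and BMP4 lowered all 36, to a median of 31.5%. Tgfb lowered all 36 in its own table, to a median of 37.2% of its controls. With BMP5 and BMP7 the medians were 75.2% and 76.9%, with 2 genes and 1 gene past the threshold, and with BMP3 none was past it. The counts are of limma tests at a Benjamini-Hochberg adjusted p under 0.05, adjusted over all genes tested. Because these are bulk samples, fewer dividing cells and less RNA per dividing cell cannot be told apart.

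The background of calls was large. Of all 14746 genes tested, BMP2 had 38.4% called lower and BMP4 had 31.4%. BMP5 had 9.87%, BMP7 13.2% and BMP3 0%, and Tgfb had 29.3% of 12959 genes. The share of 36 of 36 lies above these for BMP2, BMP4 and Tgfb, whereas 2 of 36 (5.56%) and 1 of 36 (2.78%) lie below them for BMP5 and BMP7. For the latter pair that order depended on the fit. With only the 2 groups compared in the fit, 17 of 36 (47.2%) were lower with BMP5 against 11.4% of all genes, and 21 of 36 (58.3%) with BMP7 against 16.6%. With quantile normalization BMP5 had 7 of 36 (19.4%) against 15.7%. The size of the change was further from the background. With BMP2, 26 of the 36 were at least 16-fold lower on the log2(value + 1) scale, against 2.54% of all genes. The median log2 change of the 36 was -4.78 with BMP2, -1.70 with BMP4 and -1.40 with Tgfb, against -0.03, 0.04 and -0.04 for all genes tested. With equal totals in every sample the calls over all genes leaned further down, to 7783 of 11410 lower with BMP2 in place of 5657 of 11077, to 6864 of 9964 with BMP4 in place of 4633 of 9597, and to 2725 of 5312 with BMP7 in place of 1940 of 4773. With quantile normalization they leaned further down for BMP5, to 2317 of 4742 in place of 1455 of 3884. The 36 members were all called lower with BMP2 and BMP4 under both scalings. No sample of these groups overlapped a control in any of the 36, while 34.4% of all genes with BMP2 and 31% with BMP4 were lower without overlap.

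**Figure D1:**
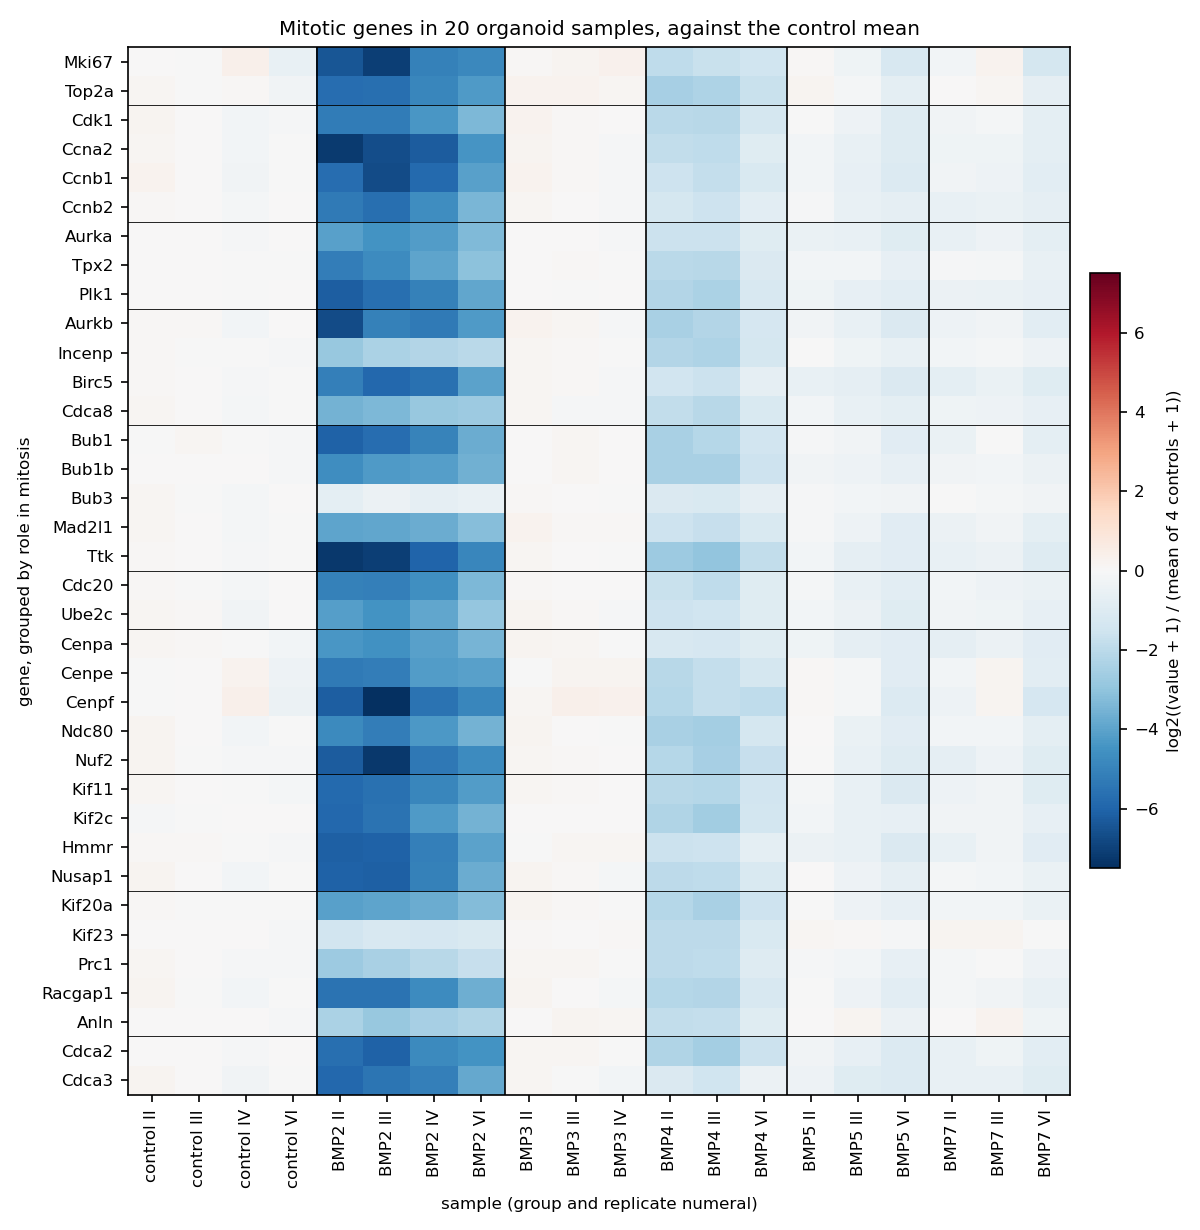
Each cell is the log2 ratio of a sample's normalised read count to the mean of the 4 controls, 1 added to both, for 36 mitotic genes (rows, grouped by role) in 20 organoid samples (columns, grouped by ligand). BMP2 samples are dark blue in most genes and palest in Bub3 and Kif23, BMP4 samples are lower in every gene, and replicate VI is the palest BMP2 and BMP4 sample in 35 of 36 genes.

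The proliferation markers Mki67, which coats mitotic chromosomes, and Top2a, which untangles DNA, fell with BMP2, BMP4 and Tgfb. Mki67 read 11200, 10900, 14500 and 7480 in controls II, III, IV and VI. It read 128, 81.8, 325 and 380 with BMP2 and 2970, 3490 and 3930 with BMP4. No treated sample reached the lowest control, and the BMP2 and BMP4 samples did not overlap each other. The mean fell to 2.08% of control with BMP2 (log2 change -5.81, SE 0.41, limma adjusted p 2.7e-10) and to 31.4% with BMP4 (log2 change -1.64, SE 0.44, limma adjusted p 0.00321). Top2a fell to 3.10% and 23.0%. In the TGFb table Mki67 was at 69.8, 75.5 and 83.7 TPM in controls and at 29.3, 27.7 and 26.5 TPM with Tgfb, again without overlap, and fell to 36.5% of control (limma adjusted p 4.07e-05).

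Cdk1, the mitotic kinase, and its cyclin partners Ccna2, Ccnb1 and Ccnb2 fell with BMP2, BMP4 and Tgfb. Cdk1 read 2360, 2120, 1770 and 1900 in the controls, 52.2, 52.4, 98.8 and 199 with BMP2, and 495, 479 and 801 with BMP4. The 3 groups were separate, with BMP2 the lowest. Cdk1 was left at 4.94% of control with BMP2 (limma adjusted p 2.31e-10) and at 29.0% with BMP4 (limma adjusted p 0.000134). Ccnb1 read 2830, 2410, 1970 and 2290 in controls, 44.3, 21.7, 40 and 142 with BMP2, and 811, 687 and 1080 with BMP4. The 4 BMP2 samples were again the lowest, and their highest, replicate VI, stood clear of the other 3. Ccna2, the cyclin of S and G2 phase, showed the largest fall of the 4, to 1.88% with BMP2. With Tgfb, Ccna2 fell to 31.3%, Ccnb1 to 33.1%, Cdk1 to 37.1% and Ccnb2 to 40.9%.

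Among the kinases of entry and spindle assembly, Plk1, which acts from entry to cytokinesis, was left at 3.20% of control with BMP2. Aurka, the centrosome kinase, and its activator Tpx2 were left at 6.49% and 6.23%. With BMP4 the 3 were left at 28.2%, 39.6% and 31.6%, and with Tgfb at 33.6%, 35.0% and 48.5%. All 9 of these falls passed limma's test.

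The chromosomal passenger complex joins the kinase Aurkb to Incenp, Birc5 and Cdca8, and its members did not fall alike with BMP2. Aurkb read 1240, 1280, 1020 and 1220 in the controls, 10.2, 34.5, 29.4 and 60.7 with BMP2, and 217, 260 and 488 with BMP4. No sample of a treated group came near the controls. It fell to 2.83% with BMP2 (log2 change -5.34, SE 0.36, limma adjusted p 1.35e-10) and to 27.0% with BMP4. Birc5 (survivin) was left at 3.15% with BMP2, while Cdca8 (borealin) kept 11.8% and Incenp, the scaffold, kept 19.8%. Incenp read 2270, 2100, 2060 and 2030 in controls and 297, 404, 466 and 511 with BMP2, all 4 well below the controls. With BMP4 the same 3 genes were left at 44.3%, 32.6% and 27.5%, so that Birc5 kept the most and Incenp the least. With Tgfb, Aurkb was left at 26.9%, Birc5 at 27.9%, Cdca8 at 36.2% and Incenp at 51.9%.

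The spindle checkpoint held both extremes of the BMP2 response. Ttk (Mps1), the kinase that starts checkpoint signalling at the kinetochore, read 877, 832, 767 and 806 in controls and only 4.54, 5.11, 11.8 and 26.6 with BMP2. It also fell the most with BMP4, to 121, 106 and 223. The mean was left at 1.46% with BMP2 (log2 change -6.29, SE 0.36, limma adjusted p 1.73e-11) and at 18.3% with BMP4 (limma adjusted p 1.56e-05). Bub3, which binds the kinetochore scaffold and carries Bub1 and Bub1b there, read 1970, 1750, 1630 and 1790 in controls, 1070, 1340, 1130 and 1220 with BMP2, and 837, 816 and 1110 with BMP4. Both treated groups lay below all controls, and they overlapped each other. Bub3 was left at 66.7% with BMP2 (log2 change -0.59, SE 0.10, limma adjusted p 3.26e-05), the smallest fall among the members, and at 51.6% with BMP4. Its partners Bub1 and Bub1b were left at 3.44% and 5.82% with BMP2, and Mad2l1, the inhibitor of Cdc20, at 7.81%. With Tgfb, Bub3 was at 51.1, 56.3 and 52.2 TPM in controls and at 34.7, 36 and 44.3 TPM with ligand. It did not overlap its controls and fell to 72.1% (limma adjusted p 0.00973), against 31.0% for Ttk and 53.5% for Bub1b.

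The partners of the anaphase promoting complex were Cdc20, its mitotic activator, and Ube2c, its ubiquitin-conjugating enzyme. Cdc20 read 1720, 1600, 1470 and 1630 in controls, 46.5, 44.8, 65.9 and 154 with BMP2, and 497, 435 and 852 with BMP4. The groups were separate and replicate VI was the highest in both treated groups. Cdc20 was left at 4.85% with BMP2 (limma adjusted p 5.36e-11) and 37.1% with BMP4 (limma adjusted p 0.000311), and Ube2c at 7.53% and 40.6%. With Tgfb the 2 were left at 39.6% and 37.8%.

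The 5 centromere and kinetochore genes were left at 1.80% to 5.94% with BMP2. Cenpf, a large outer kinetochore protein, and Nuf2, part of the Ndc80 complex that grips microtubules, were the lowest at 1.80% and 1.94%. Ndc80 itself was left at 4.85%, the motor Cenpe at 4.13% and Cenpa, the histone H3 variant that marks centromeres, at 5.94%. With BMP4 they were left at 23.3% (Nuf2) to 45.5% (Cenpa), and with Tgfb at 29.7% (Nuf2) to 44.4% (Cenpe).

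Of the spindle motors and microtubule proteins, Kif11 (Eg5), which pushes the spindle poles apart, read 4020, 3780, 3610 and 3290 in controls, 62.4, 75.4, 125 and 197 with BMP2, and 853, 843 and 1380 with BMP4. The 3 groups did not overlap. It was left at 3.13% with BMP2 (limma adjusted p 8.59e-12), at 27.9% with BMP4 (limma adjusted p 2.27e-05) and at 29.5% with Tgfb (limma adjusted p 1.24e-05). Hmmr, Nusap1 and Kif2c, a microtubule depolymerase, were left at 2.92%, 3.30% and 4.34% with BMP2.

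The cytokinesis genes kept the most with BMP2, at a median of 17.9% of control, against 2.59% to 7.46% for the medians of the other roles. Kif23 (MKLP1) and Racgap1 form the centralspindlin complex and differed from each other. Kif23 read 2280, 2230, 2200 and 2090 in controls, 824, 954, 908 and 976 with BMP2, and 564, 557 and 987 with BMP4. The BMP2 samples lay well below controls and overlapped the BMP4 samples. Kif23 was left at 41.6% with BMP2 (log2 change -1.27, SE 0.13, limma adjusted p 6.9e-08), while Racgap1 was left at 3.96% (log2 change -4.85, SE 0.32, limma adjusted p 8.89e-11). With BMP4 the 2 partners were left at 31.9% and 29.6%. Prc1, which bundles the central spindle, was left at 22.0% with BMP2. Anln (anillin), the scaffold of the contractile ring, read 1480, 1530, 1540 and 1370 in controls, 285, 206, 262 and 309 with BMP2, and 416, 435 and 799 with BMP4. Its treated groups lay below the controls and apart from each other, at 17.9% and 37.2% of the control mean. Kif20a, a motor of the central spindle, was left at 7.60% and 25.4%. With Tgfb, Kif23 kept 81.7%, Anln 56.6%, Prc1 49.1%, Kif20a 40.8% and Racgap1 40.4%.

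Cdca2 and Cdca3, named as cell division cycle associated genes, were left at 2.81% and 3.41% with BMP2. With BMP4, Cdca3 kept 52.0%, the highest percentage among the members, at 804, 618 and 1270 against 1990, 1740, 1450 and 1720 in controls. The groups did not overlap, and the fall passed the threshold (log2 change -1.0, SE 0.33, limma adjusted p 0.0138) but missed it without BMP4 replicate III (adjusted p 0.0864). With Tgfb it fell further than any other member, from 83.8, 82.8 and 94.1 TPM in controls to 22.3, 24.2 and 23.2 TPM, which is 26.7% of control (log2 change -1.86, SE 0.08, limma adjusted p 1.06e-05).

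**Figure D2:**
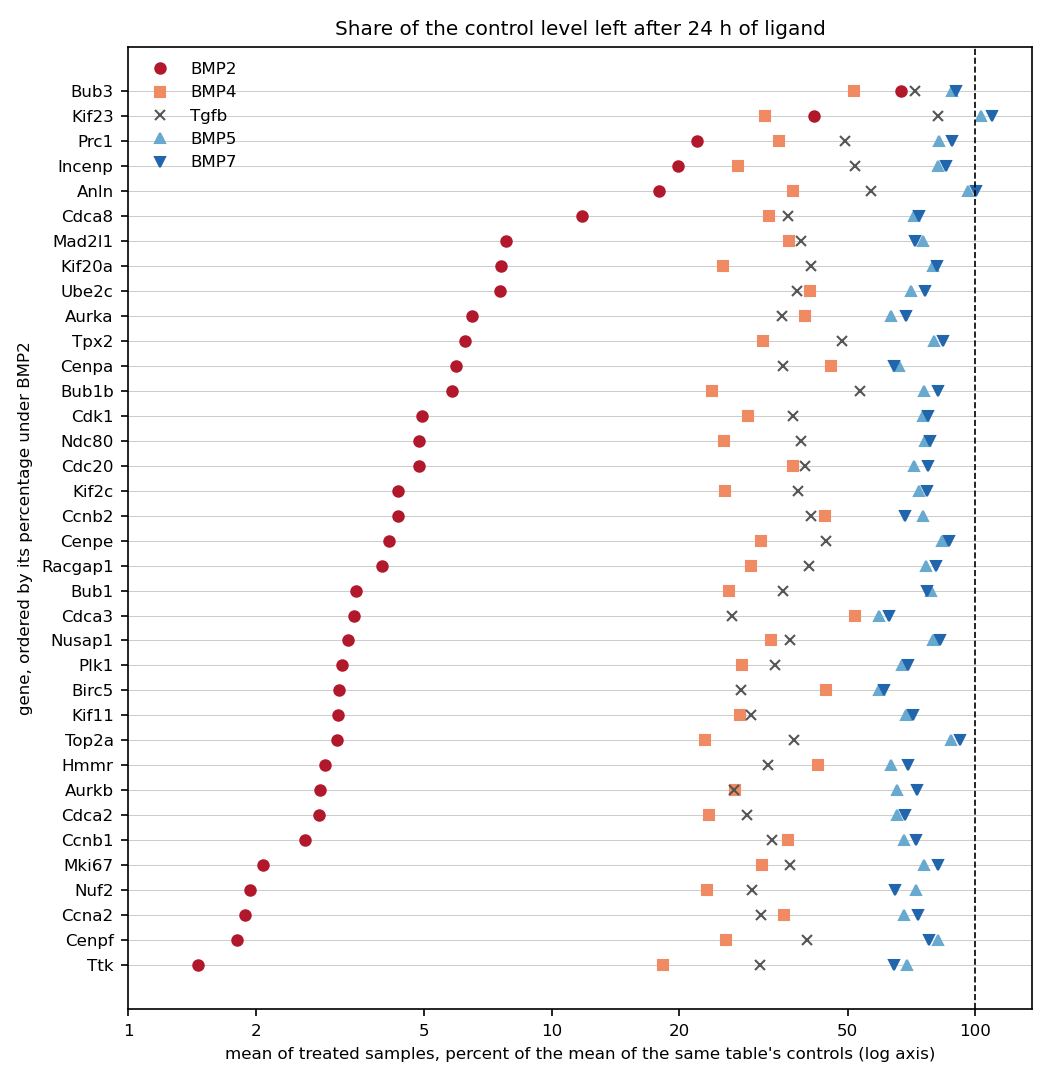
For each of 36 genes (vertical axis, ordered by BMP2), the point gives the mean of the treated samples as a percentage of the mean of the same table's controls (horizontal log axis), by ligand, with the dashed line at 100%. Under BMP2 the genes run from 1.46% (Ttk) to 66.7% (Bub3), whereas BMP4 and Tgfb span 18.3% to 52.0% and 26.7% to 81.7%.

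BMP5 and BMP7 gave lower means in most members and few calls. Cenpa fell with both, to 65.9% with BMP5 (limma adjusted p 0.0289) and 64.4% with BMP7 (limma adjusted p 0.0191), and Aurka fell with BMP5, to 63.2% (limma adjusted p 0.024). Cenpa read 1480, 1400, 1280 and 1150 in controls, 1060, 832 and 733 with BMP5, and 843, 986 and 734 with BMP7. No treated sample reached the lowest control. The other 34 members with BMP5 and 35 with BMP7 did not pass in the fit of all 6 groups. Groups did not overlap for 15 members with BMP5 (16.4% of all genes lower without overlap) and 22 with BMP7 (20.8%). The 4 members called with the replicate number as a block for BMP7 were Cenpa, Aurka, Birc5 and Mad2l1, in place of 1. That is 11.1% of the members, against 21.3% of all genes lower in the blocked fit. Leaving out BMP7 replicate II or VI, BMP5 replicate III or VI, or control III for BMP5 left no member called. The count ran from 0 to 4 with BMP5 and from 0 to 2 with BMP7 over the replicates left out. In those fits 4.83% to 11.8% of all genes were lower with BMP5 and 8.19% to 12.7% with BMP7, each above the members' share.

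The members with the most and the least change under these ligands illustrate the range. Cdca3 changed the most with BMP5, reading 1310, 918 and 837 against 1450 to 1990 in controls, and did not pass (log2 change -0.77, limma adjusted p 0.0976). Birc5 changed the most with BMP7, reading 806, 956 and 705 against 1250 to 1440, and did not pass (log2 change -0.72, limma adjusted p 0.0839). Cdca3 passed with only the 2 groups fitted (limma adjusted p 0.00962) and with DESeq2 (adjusted p 0.0454). Birc5 passed with equal totals (limma adjusted p 0.0463), quantile normalization (0.0476), only the 2 groups fitted (0.00125) and the replicate block (0.0426). It also passed with edgeR (adjusted p 0.0375), with DESeq2 (0.0211) and without the samples numbered VI (limma adjusted p 0.0217). Neither passed in a fit without 1 replicate. In both genes all treated samples lay below all controls. Kif23 read 2430, 2330 and 2060 with BMP5 and 2520, 2550 and 2170 with BMP7, overlapping its controls. Anln read 1480, 1680 and 1100 with BMP5 and 1490, 1800 and 1170 with BMP7, also overlapping. The mean of Kif23 was 103% of control with BMP5 and 110% with BMP7, and that of Anln 95.9% and 100%. The 95% intervals of the 36 log2 changes included 0 for 29 members with BMP5 and 31 with BMP7.

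The other genes followed by design gave overlapping or barely separate groups with BMP5 and BMP7. Mki67 read 11500, 8730 and 4840 with BMP5 and 9380, 13100 and 4490 with BMP7. Cdk1 read 1960, 1570 and 1060, and 1670, 1810 and 1240, respectively. Replicate VI was the lowest value of each of these groups. Ccnb1 read 2070, 1580 and 1190 with BMP5 and 1990, 1810 and 1360 with BMP7, and its highest treated sample reached into the controls under both ligands. Aurkb read 974, 801 and 557, and 919, 980 and 700, and lay below all controls under both ligands. Bub3 read 1700, 1570 and 1460, and 1720, 1630 and 1480, overlapping its controls. Cdc20 read 1430, 1100 and 927, and 1390, 1220 and 1120, below all controls under both. Kif11 read 3330, 2520 and 1720, and 2820, 3050 and 1990, overlapping its controls with BMP5 only by its highest sample. None of these 7 genes passed limma's test with BMP5 or BMP7 in the fit of all 6 groups. With only the 2 groups fitted, Ccnb1, Aurkb and Cdc20 passed with both ligands. Their limma adjusted p values were 0.0477, 0.0272 and 0.0293 with BMP5 and 0.0413, 0.0233 and 0.0156 with BMP7. Kif11 passed in that fit with BMP7 only (limma adjusted p 0.0247), and Mki67, Cdk1 and Bub3 with neither. Under quantile normalization Bub3 passed with BMP5 (limma adjusted p 0.0266) and BMP7 (0.0175).

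**Figure D3:**
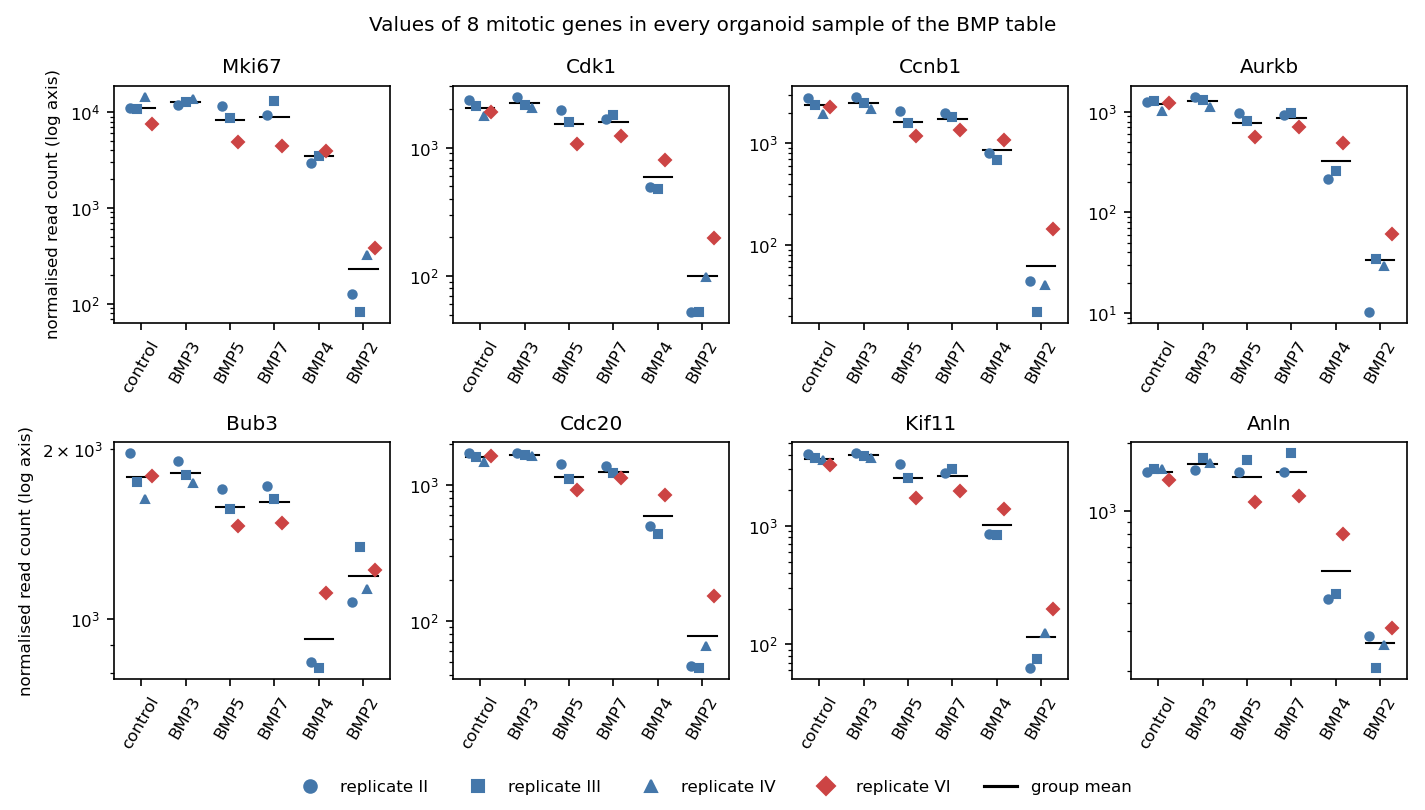
Each panel gives 1 gene's normalised read count (vertical log axis) in every sample of 6 groups (horizontal axis), with a marker shape for each replicate numeral, replicate VI in red, and the group mean as a line. BMP2 and BMP4 samples lie below every control in all 8 genes, and replicate VI is the lowest BMP5 and BMP7 sample in all 8.

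Samples numbered VI stood apart within the ligand groups. The median percentage of control over the 36 genes was 2.47, 2.40, 3.97 and 8.07 in BMP2 samples II, III, IV and VI and 24.9, 25.8 and 44.5 in BMP4 samples II, III and VI. It was 91.5, 72.6 and 56.5 in BMP5 samples II, III and VI and 82.5, 83.6 and 60.9 in BMP7 samples II, III and VI. Replicate VI thus gave the highest value of 35 of 36 members in BMP2 and in BMP4, and the lowest value of 36 of 36 in BMP5 and in BMP7. The control numbered VI stood at 96.6, between 95.3 and 108 for the other controls. Without the 5 samples numbered VI, an alternative chosen after the values were seen, all 36 members were called lower with BMP2 and all 36 with BMP4, while BMP5 had 3 (8.33%, against 4.98% of all genes) and BMP7 had 4 (11.1%, against 8.11%). The median log2 changes were then -5.21, -2.0, -0.31 and -0.28. What a numeral stands for is not said in the labels, and its part in these values was not tested.

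BMP3 gave no called member. Its medians per sample were 110, 106 and 99.1% of control in samples II, III and IV. The 36 log2 changes ran from -0.03 to 0.31 with a median of 0.08, and the 95% intervals, all of which included 0, reached from -0.81 to 1.28. At an unadjusted p under 0.05 there were 0 members among 110 genes, which is 0.746% of those tested. edgeR and DESeq2 on recovered reads also called 0 members. As examples, Mki67 read 11900, 12900 and 13600, Cdk1 2490, 2140 and 2050, and Bub3 1910, 1800 and 1740, all overlapping the controls. Ccnb1 read 2880, 2490 and 2200, Aurkb 1410, 1300 and 1120, and Cdc20 1720, 1670 and 1630. Kif11 read 4130, 3930 and 3750 and Anln 1510, 1720 and 1620. These overlapped the controls too.

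Among controls the spread of a member varied with the gene. The coefficient of variation over the 4 controls ran from 1.15% in Plk1 to 26.0% in Mki67, with Cenpf at 22.5% and Cenpe at 17.9% next. These 3 genes also have the longest transcripts of the 36, at 10061, 11130 and 7910 bases for Mki67, Cenpf and Cenpe. Mad2l1, next in length at 7557 bases, had a coefficient of 8.57%, while Ccnb1, next in the coefficient at 15.0%, has 2489 bases. Length is that of the longest GENCODE M21 transcript of each gene, which need not be the one expressed. Over the 36 genes the correlation of length with this coefficient was 0.667 (Pearson) and 0.318 (Spearman). The points share the same 4 libraries, so this is a description of genes and not of replicates. The median coefficient over members was 7.99% in controls, 62.8% in BMP2 samples and 35.2% in BMP4 samples. In BMP5 samples it was 23.2% and in BMP7 samples 15.2%. The common estimate of spread used by the test includes all of these groups.

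Direct tests between ligands at the same dose and time put BMP2 below BMP4 and BMP7. In BMP2 against BMP4, 33 members were lower and 2 higher by limma (33.4% of all genes lower, 33.4% higher), with a median log2 difference of -3.0. Ccna2 differed the most, at 32.9, 46, 63.5 and 220 with BMP2 against 1330, 1260 and 2520 with BMP4 (log2 difference -4.55, SE 0.42, limma adjusted p 1.79e-08). All BMP2 samples lay below all BMP4 samples there. The 2 members called higher with BMP2 were Kif23 (log2 difference 0.43, SE 0.14, limma adjusted p 0.0128) and Bub3 (log2 difference 0.38, SE 0.11, limma adjusted p 0.00481), both with overlapping samples. The call on Kif23 was lost without BMP4 replicate II (adjusted p 0.0988) or III (0.103) and with only the 2 groups fitted (adjusted p 0.0831). Incenp missed the threshold (log2 difference -0.43, limma adjusted p 0.0635), but passed it with equal totals (adjusted p 0.0317), with DESeq2 (0.0338) and without BMP2 replicate VI (0.0293), BMP4 replicate II (0.0374) or BMP4 replicate III (0.018). Prc1, called lower, missed it without BMP2 replicate II (adjusted p 0.0699) or BMP4 replicate VI (0.187) and with only the 2 groups fitted (0.0856).

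In BMP2 against BMP7 all 36 were lower (31.4% of all genes), from Ccna2 (log2 difference -5.66) to Bub3 (-0.44). In BMP4 against BMP7, 31 were lower (31.4% of all genes), with Top2a the most different (1950, 2180 and 3410 against 11300, 11900 and 6950, log2 difference -2.0, limma adjusted p 3.39e-05). The 5 not called included Ccnb2 (log2 difference -0.66, limma adjusted p 0.126) and Cdca3 (-0.32, limma adjusted p 0.455). Ccnb2 passed with equal totals (adjusted p 0.0194), with edgeR (0.038) and with only the 2 groups fitted (0.0174). Over the fits without 1 replicate 27 to 33 members were called, and Mki67, Ccna2 and Ccnb1 missed the threshold without replicate II or III of BMP4 or of BMP7. Without the samples numbered VI all 36 were called. With equal totals the calls over all genes leaned down here too, to 6948 of 9475 in place of 4625 of 9262 for BMP2 against BMP7 and to 6641 of 9309 in place of 4628 of 8818 for BMP4 against BMP7. BMP5 and BMP7 were not told apart in any member (0.0136% of all genes called), and at an unadjusted p under 0.05 there were 0 members (2.35% of all genes). The 95% intervals of those log2 differences reached from -1.07 to 1.16, so differences up to about that size are not excluded. All comparisons with controls in the BMP table share the same 4 control samples.

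Tgfb lowered the members more evenly than BMP2 did. Levels per transcript length can be set side by side in TPM. In controls they ran from 15.4 ± 0.879 TPM for Cenpf to 178 ± 5.73 TPM for Top2a (SD, n = 3), with Ube2c at 169 ± 10.8, Mad2l1 at 140 ± 18.2 and Ccna2 at 129 ± 7.76. Control samples of Top2a and Ube2c overlapped, as did those of Mad2l1 and Ccna2. The highest Mad2l1 sample (152 TPM) lay below the lowest Ube2c sample (157 TPM). After Tgfb the medians per sample were 38.9, 36.4 and 35.8% of control in samples I, II and III. Cdk1 went from 92.5, 105 and 101 TPM to 37.5, 38.1 and 35.0 TPM, and Ccnb1 from 71.3, 75.0 and 75.1 to 25.5, 24.0 and 23.7 TPM. Aurkb went from 45.3, 52.9 and 46.4 to 13.8, 14.0 and 11 TPM. In all 3 genes treated and control samples lay far apart.

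Cdc20 went from 51.6, 57.5 and 54.0 to 21.9, 19.9 and 22.9 TPM and Kif11 from 45.7, 47.9 and 48.1 to 15.0, 13.8 and 13.1 TPM with Tgfb. Anln went from 20.1, 23.3 and 22.8 to 13.2, 12.9 and 11.4 TPM. No treated sample overlapped a control in these genes, nor in any other member. Groups without overlap and lower in treated samples made up 33.5% of all genes there. Kif23 was the exception in size. It read 77.4, 69.9 and 68.0 TPM in controls and 58.8, 64.5 and 52.8 TPM with Tgfb, close to its controls without overlapping them (log2 change -0.29, SE 0.10, limma adjusted p 0.04). That call was lost in 5 of the 6 fits that left out 1 sample (adjusted p 0.0277 to 0.111 over the 6) and with no filter on low values (adjusted p 0.0636).

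The order of the members under Tgfb can be set beside that under the BMP ligands, since the tables share no samples. Over the 36 genes the log2 changes with Tgfb and with BMP2 had a Pearson correlation of 0.790 and a Spearman correlation of 0.671. With BMP4 the values were 0.063 and -0.028, with BMP5 0.878 and 0.871, and with BMP7 0.842 and 0.821. Genes are not independent replicates, and these are descriptions. Kif23, Bub3, Anln, Incenp and Prc1 were the least lowered under BMP2, and under Tgfb 4 of them, all but Prc1, were among the 5 smallest log2 falls. The BMP4 order differed in that Cdca3 and Birc5, among the most lowered with Tgfb at 26.7% and 27.9%, kept 52.0% and 44.3%.

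**Figure D4:**
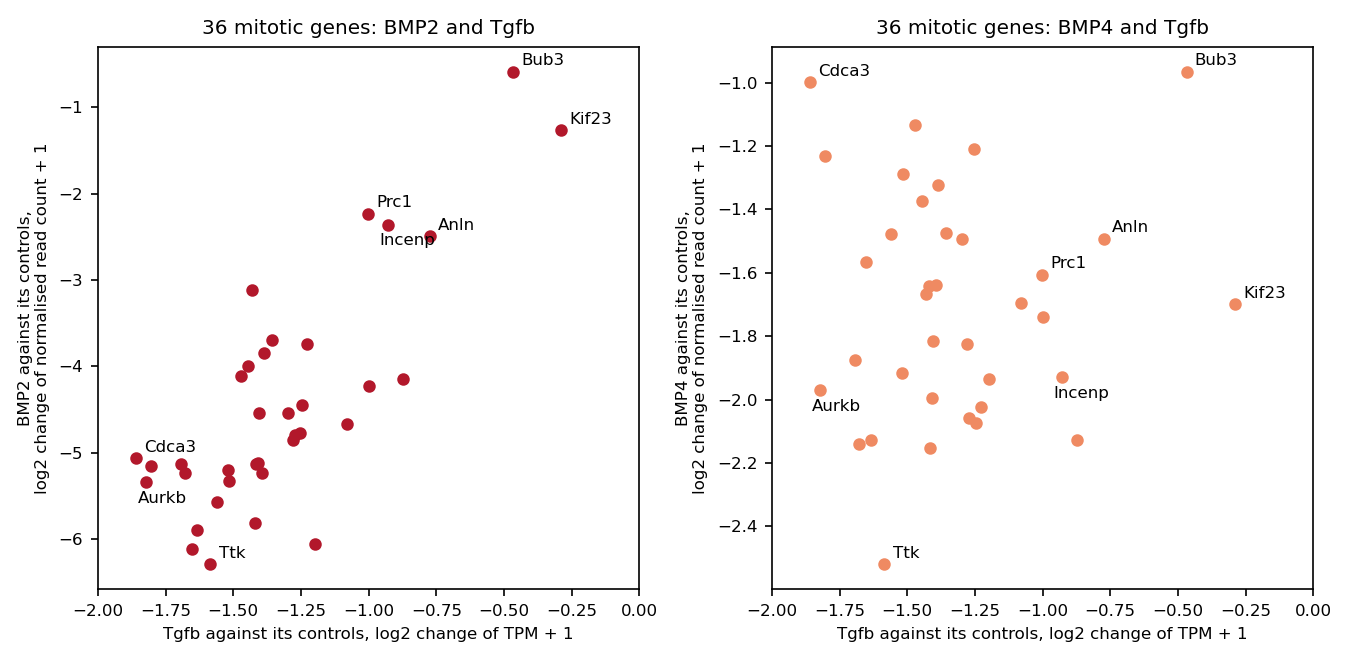
Each point is 1 of 36 genes, with its log2 change against controls under Tgfb (horizontal axis, TPM + 1) and under BMP2 or BMP4 (vertical axis of the left and right panel, normalised read count + 1). Bub3, Kif23, Anln, Incenp and Prc1 lie at the upper right with BMP2, where Pearson's correlation was 0.790, and the BMP4 panel shows no such order (0.063).

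Other genes of the pathway were followed in lists chosen with earlier results of these data known. In these lists fell and rose count only genes past the limma threshold, so an uncounted gene can still have a lower mean. Of all genes tested, 38.4% were called lower with BMP2, 31.4% with BMP4, 29.3% with Tgfb, 9.87% with BMP5 and 13.2% with BMP7. Over all genes, about as many were called higher as lower with BMP2 and BMP4, and more were called higher with BMP5 and BMP7. The share called higher with Tgfb is not given. A count near its share is no trait of a list. Of 44 other mitotic genes, 41 fell and 1 rose with BMP2 (median log2 change -4.39), and 42 fell and 1 rose with BMP4 (-1.85). With Tgfb 42 fell and 1 rose (-1.25), while 1 was called lower with BMP5 and 6 with BMP7, the latter near the share of all genes. Sgo1 (shugoshin), protector of centromeric cohesion, went from a mean of 793 to 30.7 with BMP2 and to 198 with BMP4. Espl1, the separase that cuts cohesin, went from 766 to 12.6 with BMP2. The rises, named after their values were seen, were Zwint, a kinetochore adaptor (1353 to 2330 with BMP2, 46.9 to 59.5 TPM with Tgfb), and Pttg1 (securin, 172 to 226 with BMP4).

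DNA replication genes fell as a group, 33 of 33 with BMP2, 33 of 33 with BMP4 and 32 of 33 with Tgfb, at median log2 changes of -3.13, -2.21 and -1.32. Under BMP5 (-0.45) and BMP7 (-0.42), 7 of 33 were called lower in each, against 9.87% and 13.2% of all genes. The thymidine kinase Tk1 went from 1038 to 32.2 with BMP2. Of 17 condensin and cohesin genes 14 were called lower with each of BMP2, BMP4 and Tgfb, and 0 with BMP5 or BMP7. Ncaph, a condensin subunit, went from 1583 to 66.3 with BMP2 and to 305 with BMP4. Its means with BMP5 (1134) and BMP7 (1136) were also below control, without a call. The core of the anaphase promoting complex behaved otherwise than Cdc20 and Ube2c. Of 16 core genes 7 were called lower and 3 higher with BMP2 (median log2 change -0.06), against 38.4% of all genes lower. With BMP4 10 were lower and 2 higher (31.4% of all genes lower), and with Tgfb 6 were lower and 1 higher (29.3%). The lower counts with BMP2 and Tgfb were close to those shares. Anapc2, its cullin subunit, rose from 1175 to 3463 with BMP2 (log2 change 1.56, limma adjusted p 4.38e-10) and from 31.9 to 72.0 TPM with Tgfb, and it also rose with BMP4 (to 1787), BMP5 (to 1767) and BMP7 (to 1893).

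Among 15 tested regulators of these promoters (DREAM, the B-Myb complex, Foxm1 and NF-Y), 12 fell and 1 rose with BMP2, 10 fell and 1 rose with BMP4 and 13 fell with Tgfb, against 1 that fell with BMP5 and 1 each way with BMP7. Foxm1, the activator of G2 and M genes, went from 1310 to 80.4 with BMP2, to 295 with BMP4 and from 22.0 to 8.00 TPM with Tgfb. Mybl2 (B-Myb) went from 1044 to 46.4 with BMP2. Of 19 regulators of the step from G1 to S phase, 15 fell and 1 rose with BMP2, 15 fell and 2 rose with BMP4, and 13 fell and 1 rose with Tgfb. With BMP5 and with BMP7, 4 fell and 1 rose. Ccnd2, a D-type cyclin, went from 13200 to 944 with BMP2 and from 115 to 18.7 TPM with Tgfb, while Mycn, a Myc family transcription factor, rose from 41.1 to 539 under BMP5, 542 under BMP7 and 238 under BMP2, and fell to 17.7 under BMP4. With Tgfb it rose from 0.941 to 20.1 TPM.

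The inhibitors of cyclin-dependent kinases did not move as a block. Of 6 tested, 3 rose and 3 fell with BMP2 and with Tgfb, 3 rose and 1 fell with BMP4, and 3 rose and 1 fell with each of BMP5 and BMP7. Rises were also common over all genes, about as many as falls with BMP2 and BMP4 and more with BMP5 and BMP7. Counts over a list this short say little. Cdkn1a (p21) rose from 1445 to 12700 with BMP2 (log2 change 3.16, SE 0.22, limma adjusted p 2.12e-10), and to 9927 with BMP4. Its rises were smaller under BMP5, to 2693, and BMP7, to 3260, and Tgfb took it from 43.3 to 155 TPM. Cdkn2b (p15) rose from 430 to 1535 with BMP2 and to 1873 with BMP4. Cdkn2c (p18) fell from 328 to 12.1 with BMP2. With BMP3 no gene of these 7 lists passed the threshold.

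Markers of crypt stem cells fell under the ligands that lowered the members, and some fell under BMP5 and BMP7 as well. The sum of Lgr5, Olfm4, Ascl2, Smoc2 and Axin2 was 99818 to 124495 in controls, 1165 to 2048 with BMP2 and 3689 to 6505 with BMP4. Under BMP5 it was 27409 to 77174, under BMP7 24229 to 28513 and under BMP3 99006 to 119289. In the TGFb table it was 2504 to 2956 TPM in controls and 165 to 172 TPM with Tgfb. All 5 markers were called lower with BMP2, BMP4 and Tgfb (38.4%, 31.4% and 29.3% of all genes). With BMP7, 3 of 5 were called lower (13.2% of all genes) at a median log2 change of -1.56. The members' median there was -0.40, with 1 of 36 called lower. With BMP5, 1 of 5 was called lower (9.87% of all genes) at a median of -0.61. Most of the sum was Olfm4, at a mean of 92700 in controls, and Ascl2 was at 354 with BMP5 and 384 with BMP7 against 312, without passing the test. Enterocyte markers (Alpi, Fabp1, Apoa1, Apoa4 and Sis) summed to 44820 to 85960 in controls, 28160 to 76190 with BMP2 and 299800 to 383800 with BMP4. In that list 5 of 5 were called higher with BMP4, whereas 2 were called lower and 1 higher with BMP2. The sum of the epithelial markers was 95740 to 106620 in controls, 528220 to 665640 with BMP2 and 209230 to 290600 with BMP4. All 4 Paneth cell markers were called lower with BMP2 and 0 of 4 with BMP4. The Paneth sums with BMP4 were nevertheless 39341 to 82410, against 76530 to 96850 in controls. Of 4 goblet cell markers 2 were called lower and 1 higher with BMP2, and 2 higher with BMP4. Of all genes, 38.4% were called lower with BMP2 and 31.4% with BMP4, and about as many were called higher. Counts in either direction over lists this short therefore say little. The part of a change in cell types in the values of the mitotic genes was not tested.

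The mesenchymal table gives the same genes in cells of another lineage, with 1 sample a group and therefore no test. Mesenchymal markers (Pdgfra, Col1a1, Col1a2, Col3a1, Dcn and Lum) summed to 15582 TPM in fresh and 3489 TPM in immortalised cells, and the epithelial ones to 28.4 and 0.0868 TPM. All 36 members were present in both samples, at 7.62 to 58.9 TPM in fresh and 10.8 to 122 TPM in immortalised cells. The value was higher in the immortalised sample for 34 of 36, with a median ratio of 1.35, against 48.6% of 13652 genes at a mean of at least 1 TPM. At least 2-fold higher in the immortalised sample on the log2(TPM + 1) scale was 1 member, as were 6.26% of these 13652 genes. That member was Mad2l1, at 21.2 TPM in fresh and 122 TPM in immortalised cells, a ratio of 5.77, while the next highest ratio was 1.79. Cdca3 and Bub1b were lower in the immortalised sample, at 18.4 and 15.6 TPM and at 17.1 and 16.7 TPM. Mki67 was at 22.3 and 32.6 TPM and Cdk1 at 54.4 and 90.5 TPM.

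**Figure D5:**
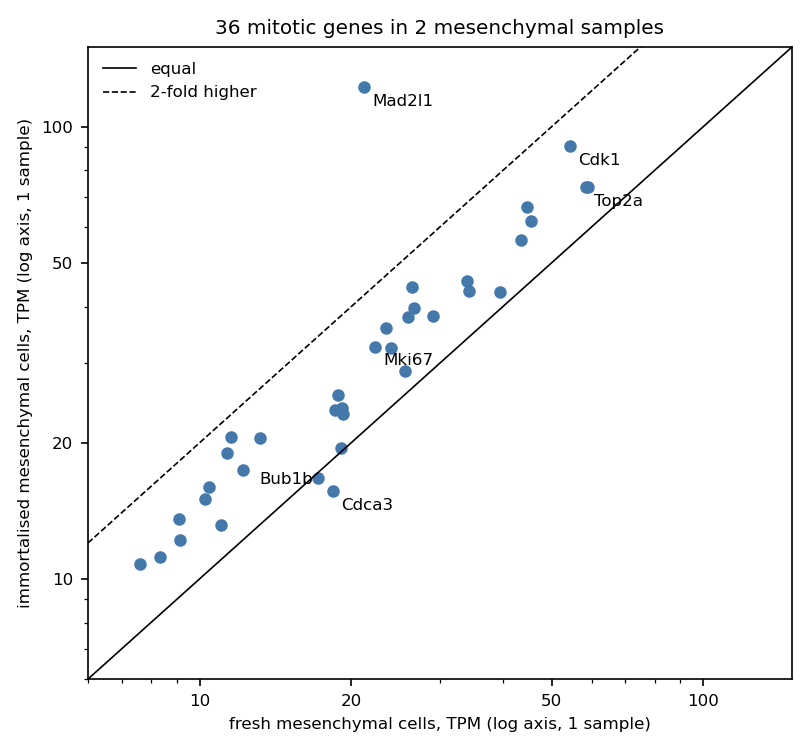
Each point is 1 of 36 genes, with its TPM in the fresh (horizontal log axis) and the immortalised (vertical log axis) mesenchymal sample, 1 sample each. Mad2l1 alone lies above the dashed line of a 2-fold higher value, and Cdca3 and Bub1b lie below the solid line of equal values.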

How the data were processed

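RNA was sequenced as KAPA mRNA libraries, single-end, on a NextSeq 500, per the labels' protocols, which name more than 1 run without saying which sample went on which. Trim Galore, Salmon, DESeq2 and GRCm39 are named in the submitters' processing notes without versions. The deposited values of the BMP table are a signal, gene counts scaled by a size factor for each sample and given to 3 significant digits by the authors, as read from the values. Of 180721 values at or below 20 reads, 99.0% were whole reads within 0.05, and 21.0% of nonzero values exceeded 999 reads and are known to 3 digits only. The deposited TGFb and mesenchymal tables hold TPM, each column summing to 1000000, which keeps no depth.

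Members were matched by gene name, and the members and all lists were chosen with earlier results of these data known. limma 3.58.1 in R 4.3.3 was fitted on log2(value + 1), with a mean-variance trend, two-sided tests and Benjamini-Hochberg adjustment over all genes tested. Genes had a mean of at least 10 in the BMP table (14746 of 29413, 6 groups in 1 fit) or 1 TPM in the TGFb table (12959 of 55416). Folds on this scale understate the change of low genes. Percentages of control are ratios of group means. Intervals are 95% intervals of the limma fit. The fits were tested on simulated counts with the same spread setting in every group. Those simulations do not cover the unequal spread between the ligand groups. Alternatives were other scalings, pseudocounts and filters, edgeR 4.0.16 and DESeq2 1.42.0 on recovered reads, fits of 2 groups, the replicate block, each replicate left out, and the samples numbered VI left out. All 36 members could be named. Values in every sample are given for Mki67, Cdk1, Ccnb1, Aurkb, Bub3, Cdc20, Kif11 and Anln and for the members that changed most and least in a comparison, and up to 3 genes with the smallest p per list. Crypt stem cell, enterocyte, epithelial and mesenchymal markers are given as sums over their lists, and Zwint and Pttg1 were named after their values were seen. Motif searches used promoter windows credited to RefSeq on GRCm38.p6, a build other than the authors', so their coordinates belong to that build only.

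Replicate numerals pair controls with BMP3, BMP4, BMP5 and BMP7 samples, by the data only: deviations of same-numbered samples from their group means correlated over all tested genes at 0.281 to 0.553, 0.19 to 0.225, 0.158 to 0.262 and 0.236 to 0.294.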

Additional observations from a re-analysis of the deposited data

Results flagged for a closer look

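A sample far from the other 3 of its group was found in 2 of the 72 sets of 4 values tested (36 genes in the controls and in BMP2), where chance gives about 1 in 20. Ccna2 read 220 in BMP2 replicate VI, against 32.9, 46 and 63.5 in the other BMP2 samples. Kif20a read 1620 in control II, against 1460, 1460 and 1470 in the other controls.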

How the results depend on the processing

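All 36 members were called lower with BMP2, BMP4 and Tgfb in every alternative run, except that 35 were called with BMP4 without BMP4 replicate III, and with Tgfb with no filter on low values or in 5 of the 6 fits without 1 replicate. The counts for BMP7 and BMP5 are given with the share of all genes called lower in the same fit. With BMP7, 1 member (2.78% of 36) was called against 13.2%. Below that share stayed 4 (11.1%) with equal totals against 18.5%, 6 (16.7%) with quantile normalization against 18.8%, 2 (5.56%) with a pseudocount of 5 against 13.9%, 2 with a mean of at least 50 against 14.8%, 4 with the replicate block against 21.3% and 4 with edgeR against 13.8%. Above it were 21 (58.3%) with only the 2 groups fitted against 16.6%, 7 (19.4%) with DESeq2 against 16.8%, and 4 without the samples numbered VI against 8.11%. With BMP5, 2 (5.56%) were called against 9.87%. Above the share were 7 (19.4%) with quantile normalization against 15.7% and 17 (47.2%) with only the 2 groups fitted against 11.4%. So were 5 (13.9%) with DESeq2 against 13.3% and 3 (8.33%) without the samples numbered VI against 4.98%. The unchanged 2 lay above it with no filter (3.92%). Below it were 4 (11.1%) with edgeR against 11.3% and 3 (8.33%) with the replicate block against 17.6%. The unchanged 2 lay below it with equal totals (12.8%), pseudocounts of 0.1 (9.54%) and 5 (10.4%), and a mean of at least 50 (12%). Without 1 replicate there were 0 to 2 with BMP7 and 0 to 4 with BMP5. The shares of all genes were then 8.19% to 12.7% with BMP7 and 4.83% to 11.8% with BMP5. In each of those fits the members' share was the lower. The cause of these differences was not tested.

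The median log2 change with Tgfb was -1.22 with a pseudocount of 5. The replicate block moved the members called from 1 to 4 for BMP7 and from 2 to 3 for BMP5, and no other member count by over 1.5 times. Over all genes it moved the lower calls from 1940 to 3148 for BMP7 and from 1455 to 2593 for BMP5. Numerals did not pair all BMP2 or Tgfb samples with their controls. Same-numbered BMP2 and control samples correlated at 0.0182 to 0.421, against -0.245 to 0.133 for other numerals. For Tgfb the ranges were 0.00405 to 0.0696 and -0.0493 to 0.0389. The lowest same-numbered value lay within the range of the other numerals for both ligands. The block left 36 members called with each of BMP2 and Tgfb.

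Directions against control turned for 5 members, with BMP5 or BMP7. Kif23 was at -0.0332 (BMP5) and -0.0014 (BMP7) with quantile normalization, Anln with BMP7 at 0.0145 with edgeR, and without the samples numbered VI, Anln was at 0.0563 (BMP5) and 0.11 (BMP7) and Top2a at 0.00902 (BMP7). Without 1 replicate the log2 change ran from -0.21 to 0.0929 for Anln, -0.45 to 0.0241 for Top2a and -0.00528 to 0.11 for Kif23 with BMP5, and from -0.16 to 0.15 for Anln, -0.29 to 0.095 for Top2a, -0.72 to 0.0474 for Mki67 and -0.48 to 0.0217 for Cenpe with BMP7.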
